A study of Mus musculus with 8 samples.

Results

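Heat shock proteins and cytosolic chaperones were followed as 33 genes, taken by symbol from a fixed list, out of 55335 genes in the count table. All 33 were in the table and all 33 passed the filter on low counts. Their mRNA was measured by poly(A)-selected RNA sequencing of liver from 8 female mice, each a separate animal. All 8 mice had received ethanol on the NIAAA chronic-plus-binge schedule, a liquid diet with ethanol that ends in an ethanol gavage. Mice 28, 34, 37 and 39 are labelled Ripk1-hepKO, with Ripk1 (a kinase and scaffold of death receptor signalling) deleted in hepatocytes only, and mice 29, 32, 40 and 41 are labelled Ripk1-Con. The Cre driver, the alleles of the controls, strain and age are not given in the sources used here, and no mouse kept off ethanol is part of the comparison. The groups are called hepKO and control livers below, always with mice in the order 28, 34, 37, 39 and 29, 32, 40, 41.

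Chaperones hold unfolded proteins and help them fold. HSP70 proteins bind short unfolded stretches, J-domain proteins (HSP40) bring them cargo, exchange factors such as HSP110 release it, and HSP90 with its cochaperones finishes the folding of kinases and nuclear receptors. Mitochondria have an HSP70, a chaperonin and an HSP90 of their own, and small heat shock proteins hold aggregating proteins without using ATP. When unfolded proteins build up, heat shock factor 1 binds inverted repeats of GAA and raises the inducible chaperones together.

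Short promoter stretches show which of these genes carry those repeats close to their start. RefSeq windows on GRCm38.p6 were found for 27 of the 33 members, and the 250 bases before each start were searched on both strands. The motif of 3 alternating units was searched as TTC, GAA and TTC, each 2 bases (NN) apart, and as its reverse complement GAA, TTC and GAA, and the motif of 2 units as TTCNNGAA and GAANNTTC, each its own reverse complement. A longer match contains shorter ones. The stretches below are those of the inducible HSP70 genes, HSP110, HSP27 and the mitochondrial chaperonin, printed 5′ to 3′ on the strand of the gene, with the matched bases in capitals.
Hspa1a: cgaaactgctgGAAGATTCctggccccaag
Hspa1b: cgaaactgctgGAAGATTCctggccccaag
Hsph1: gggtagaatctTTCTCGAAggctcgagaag
Hspb1: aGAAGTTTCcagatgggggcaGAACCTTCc
Hspe1: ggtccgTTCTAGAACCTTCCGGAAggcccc
Hspd1: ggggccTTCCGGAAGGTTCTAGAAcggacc

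The Hspa1a stretch (chr17:34972242-34972271, minus strand) and the Hspa1b stretch (chr17:34959324-34959353, minus strand) have the same letters, 104 to 97 bases before the start in both genes. The starts of these tandem genes lie 12918 bp apart, and both stretches overlap no annotated gene. The Hsph1 stretch (chr5:149636351-149636380, minus strand) overlaps an annotated Hsph1 exon, and the annotated gene ends at 149636376, within the stretch. The Hspb1 stretch (chr5:135887801-135887830, plus strand) overlaps no annotated gene and holds 2 matches to the shorter motif. Hspe1 and Hspd1 share 1 stretch (chr1:55088053-55088082), read on the plus strand for Hspe1 and on the minus strand for Hspd1, with starts as close as 95 bp. It lies 89 to 72 bases before the Hspe1 start, where it overlaps an annotated Hspd1 exon, and 2 overlapping matches to the longer motif cover its capitals. The longer motif stood in the windows of 3 of 27 members (Hspd1, Hspe1 and Dnajb6) and of 0.514% of all 27025 genes in the RefSeq table. The shorter motif stood in those of 12 of 27 members and of 14.5% of all genes. A match describes letters in this window and no match says nothing of the factor.

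Total counts ran from 28038390 to 67328158 per library, and the member with the lowest count (Hspa1a in mouse 28) still had 82 reads. Mouse 28 stood apart from the rest: it held the highest value of the 8 mice for 26.3% of all genes and the lowest for 26.8%, where the other 7 mice held between 8.22% and 14.7% each. Ripk1 itself did not identify the labels, at 38.1, 35.8, 33.1 and 23.1 CPM (counts per 1000000, scaled by TMM) in hepKO livers and 34.3, 53.6, 27.8 and 34.2 CPM in controls, and its log2 fold change was -0.21 (adjusted p = 0.866 by edgeR). A gene count cannot show the loss of single exons, so each group below is that of the libraries labelled so. In whole liver, fewer cells of a type and less RNA per cell cannot be told apart.

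No chaperone gene passed the threshold between the genotypes. By edgeR's quasi-likelihood test, 0 of 33 members passed a false discovery rate (FDR) of 0.05, as did 0% of the 15234 genes tested. At an unadjusted p under 0.05 there was 1 member, Hsf2, which was lower, against 6.68% of all genes in either direction and 2.82% lower. DESeq2 called 0 members and 0.237% of genes, and limma voom called 0 members. The groups overlapped for all 33 members, while they did not for 4.1% of all genes. Of the members, 28 had a log2 fold change below 0 (hepKO minus control) against 48.2% of all genes, with a median of -0.23 against 0.01. The median was -0.57 for the inducible genes, -0.29 for cochaperones, -0.25 for the heat shock factors, -0.10 for mitochondrial chaperones, -0.09 for constitutive cytosolic chaperones and 0.56 for small heat shock proteins. The 95% confidence intervals of the inducible HSP70 genes and Hsph1 spanned more than those of any other member, as the plot of genotype differences shows.

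**Figure D1:**
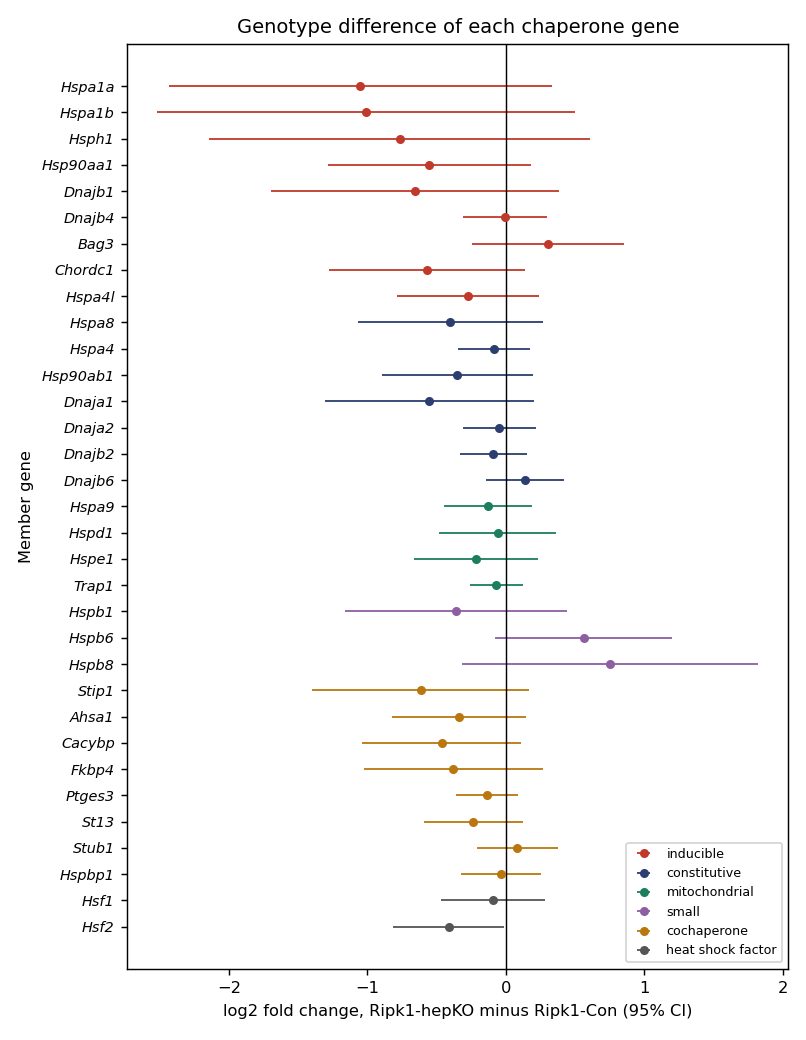
Log2 fold change of each member gene, hepKO minus control, with its 95% confidence interval from the edgeR fit, coloured by role. The intervals of all members but Hsf2 cross 0, and those of Hspa1b (-2.52 to 0.50) and Hsph1 (-2.14 to 0.61) are among the widest.

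The extremes fell on the same pair of mice for many members. Mouse 32, a control, held the highest level of the 8 mice for 23 of 33 members, against 11.9% of all genes. Mouse 28, a hepKO animal, held the lowest for 18 of 33, against 26.8% of all genes. Both held at once for 16 members (48.5%) and for 4.36% of all genes. The pair was named after the values of these members were seen, which favours the members in these comparisons. Without these 2 mice, an alternative chosen after seeing the data, the median log2 fold change was -0.09 for the inducible genes and -0.05 over all members. For the 16 members with these extremes, this raises the hepKO mean and lowers the control mean by construction. For the other members it need not, and Bag3 moved from 0.31 to 0.47. Without mice 28 and 40 instead, the inducible median was -0.55, beside -0.57 with all mice. There, 6 of 33 members had an unadjusted p under 0.05, against 9.48% of all genes, with 0 past the FDR by edgeR. Mouse 40 was the lowest control for every inducible gene but Bag3, so leaving it out widens their difference by construction. With single mice left out, the inducible median ran from -0.78 without mouse 37 to -0.28 without mouse 32. The libraries of mice 28 and 32 were the deepest of the 8, at 59481293 and 67328158 counts. They also had the lowest TMM factors, at 0.918 and 0.919. The part of depth and scaling was not tested. Some marker lists of other cell types and the immediate early genes were also highest in mouse 28, with values given at the end of these results, and their part was not tested.

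**Figure D2:**
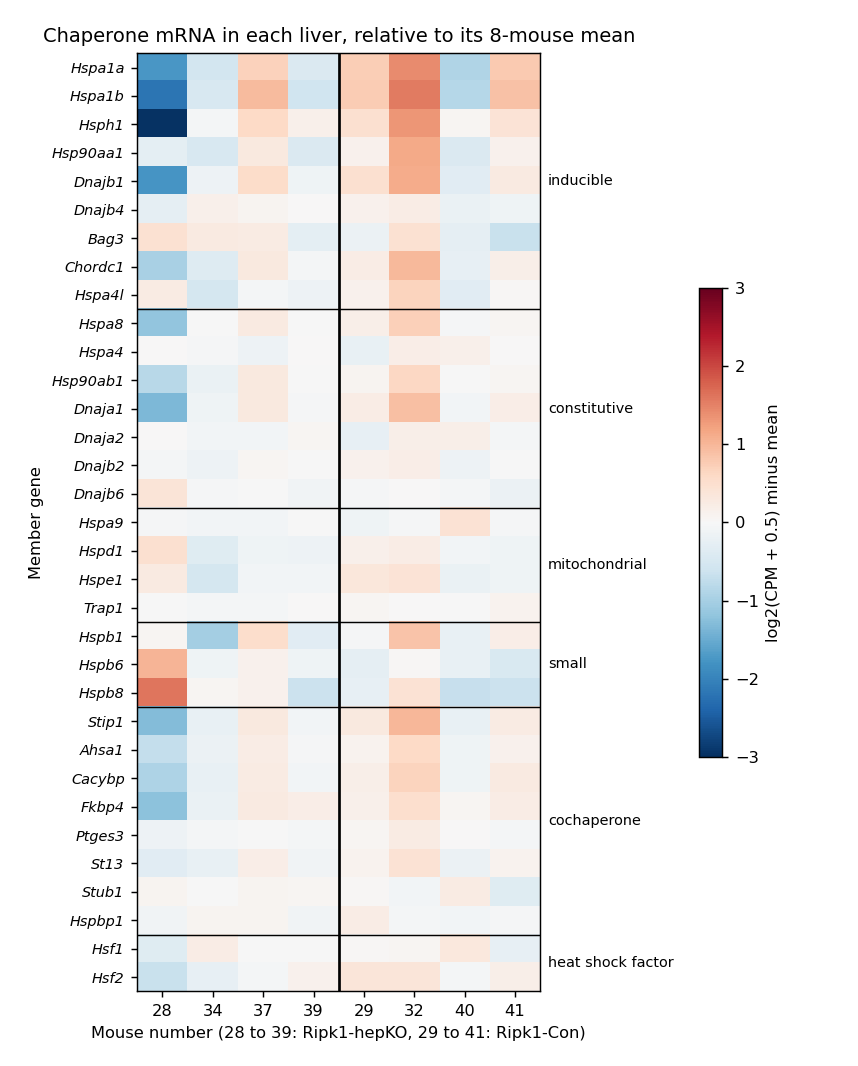
Level of each member in each liver as log2(CPM + 0.5) minus its mean over the 8 mice, with hepKO mice on the left of the vertical line and control mice on the right. Mouse 28 is lowest for 6 of 9 inducible chaperones and 7 of 8 cochaperones and mouse 32 highest for 9 and 6 of them, while Hspb6 and Hspb8 are highest in mouse 28.

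The inducible HSP70 genes, which are nearly silent in unstressed cells, were among the members with the widest range across mice. Hspa1b (ENSMUSG00000090877, chr17:34956436-34959238) stood at 5.005, 17.4, 48.4 and 16.01 CPM in hepKO livers 28, 34, 37 and 39, and at 42.1, 73.4, 13.3 and 45.4 CPM in control livers 29, 32, 40 and 41. Mouse 28 was lowest and mouse 32 highest, while mouse 37 lay among the higher controls and mouse 40 below 3 of the hepKO mice. The group means were 21.7 ± 18.6 CPM in hepKO livers and 43.6 ± 24.6 in controls (SD, n = 4 each), which is a log2 difference of -1.01 with an SE of 0.67 (adjusted p = 0.790 by edgeR). Hspa1a (ENSMUSG00000091971, chr17:34969190-34972156), its tandem copy, stood at 1.503, 4.13, 10.4 and 4.51 CPM in the same hepKO livers and 10.7, 17.5, 3.09 and 11.04 CPM in the same controls, and the order of the mice was nearly that of Hspa1b. Its log2 fold change was -1.05 with an SE of 0.61 (adjusted p = 0.771 by edgeR). Leaving out single mice moved Hspa1b between -1.77 (without mouse 37) and -0.63 (without mouse 32), and Hspa1a between -1.65 and -0.70 without the same mice. The adjusted p without mouse 37 was 0.513 for both genes by edgeR. Because the copies share most of their sequence, the split of reads between them is uncertain, so their sum is safer. Summed, they stood at 6.51, 21.5, 58.8 and 20.5 CPM in hepKO livers and at 52.8, 91.0, 16.4 and 56.5 CPM in controls, a 14.0-fold range over the 8 mice.

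The HSP110, HSP40 and HSP90 partners of inducible HSP70 had the same extremes, with 1 exception at the low end. Hsph1 (ENSMUSG00000029657, chr5:149614287-149636376), the inducible HSP110 that releases cargo from HSP70, stood at 11.1, 86.0, 136 and 101 CPM in hepKO livers 28, 34, 37 and 39 and at 125, 228, 94.6 and 120.2 CPM in control livers 29, 32, 40 and 41. Mouse 28 lay far below the others: the range was 20.6-fold over all mice and 1.58-fold over the 6 mice without numbers 28 and 32. The log2 fold change was -0.77 with an SE of 0.61 (adjusted p = 0.817 by edgeR). Dnajb1, the main stress-inducible J-domain protein, stood at 9.18, 29.02, 47.6 and 29.5 CPM in hepKO livers and 45.4, 70.9, 25.8 and 39.6 in controls, a log2 fold change of -0.66 ± 0.46 (SE). Hsp90aa1, the inducible cytosolic HSP90, stood at 205, 180.5, 309 and 187 CPM in hepKO livers and 277, 556, 187 and 275 in controls. Here mouse 32 was alone at the top, and mouse 28 was not lowest, lying above mice 34, 39 and 40.

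Of the other inducible members, Chordc1 and Dnajb4 shared the extremes, Dnajb4 over a narrow range, while Bag3 and Hspa4l were high in mouse 28. Chordc1, an HSP90-binding protein, stood at 24.8, 37.5, 60.4 and 46.7 CPM in hepKO livers and 57.6, 96.8, 41.2 and 55.5 in controls, with mouse 28 lowest and mouse 32 highest. Dnajb4, a J-domain protein, had a 1.40-fold range, at 31.7, 42.5, 40.6 and 38.5 CPM in hepKO livers and 41.8, 44.2, 32.9 and 34.7 in controls, a log2 fold change of -0.00356 with a 95% interval of -0.31 to 0.30. Bag3, which links HSP70 to the autophagic removal of misfolded protein, stood at 69.8, 61.4, 61.0 and 41.9 CPM in hepKO livers and 44.8, 70.3, 42.2 and 31.8 in controls. Bag3 was highest in both mice 28 and 32, and its log2 fold change of 0.31 ± 0.24 (SE) was the only 1 above 0 among the inducible genes. That of Bag3 was 0.56 without mouse 32 (edgeR unadjusted p = 0.0203, adjusted p = 0.900). Without mice 28 and 32 it was 0.47 (edgeR unadjusted p = 0.0347), which did not pass the FDR either. Hspa4l, of the HSP110 family, stood at 40.2, 23.5, 32.9 and 30.5 CPM in hepKO livers and 37.5, 54.6, 27.0 and 34.7 in controls, and mouse 28 was second only to mouse 32.

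**Figure D3:**
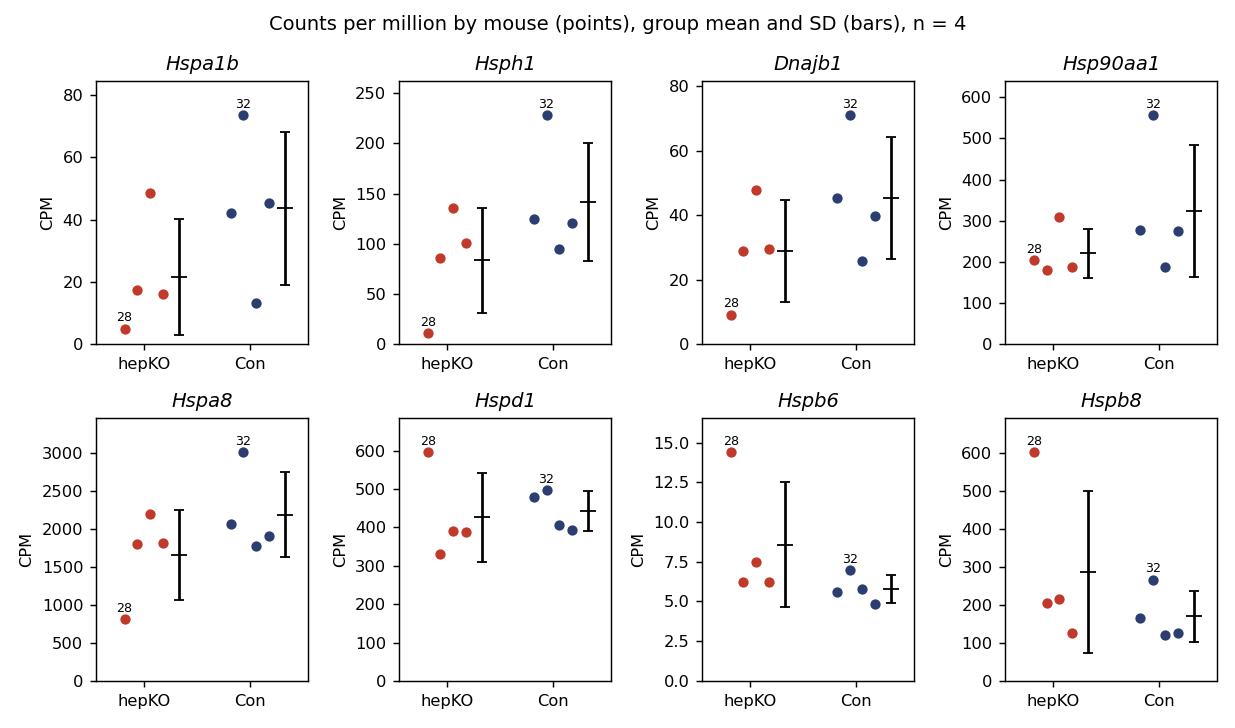
CPM of 8 members in each mouse (points, with mice 28 and 32 numbered), with the group mean and SD as bars (n = 4 each), on axes that start at 0. Hsph1 runs from 11.1 CPM in mouse 28 to 228 in mouse 32, whereas Hspb8 is highest in mouse 28, at 604 CPM.

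Constitutive cytosolic chaperones included the 2 most abundant members, and 3 of the 7 had mouse 28 lowest and mouse 32 highest. Per kilobase of exon, the level of Hspa8 (447 CPM per kb) was the highest of the 33 genes, followed by Hsp90ab1 (316), Hspd1 (165), Hspa9 (129.6) and Hspb8 (118), against 11.6 for Hspa1b and 2.65 for Hspa1a. Hspa8 (ENSMUSG00000015656, chr9:40800984-40810087), the HSC70 of all cells, stood at 809, 1802, 2201 and 1819 CPM in hepKO livers and 2063, 3014, 1775 and 1908 CPM in controls. Its 6 levels outside mice 28 and 32 spanned only 1.24-fold, against 3.73-fold over all 8, and the log2 fold change was -0.40 with an SE of 0.30 (adjusted p = 0.806 by edgeR). Hsp90ab1, the constitutive HSP90, stood at 510.2, 794, 1124 and 901 CPM in hepKO livers and 972, 1412, 909 and 955 in controls, again with mouse 28 lowest and mouse 32 highest. Dnaja1, a J-domain partner of HSC70, stood at 224 ± 89.2 against 329 ± 104 CPM (SD, n = 4 each; hepKO first), and ranged 4.77-fold over the 8 mice.

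The remaining constitutive genes varied little. Hspa4, of the HSP110 family, stood at 134, 129.5, 119 and 135 CPM in hepKO livers and 114, 153, 149 and 134 in controls, a 1.34-fold range. Dnaja2, a paralog of Dnaja1, stood at 133 ± 5.66 against 137 ± 18.9 CPM with a 95% interval of the log2 fold change of -0.31 to 0.22. Dnajb2 and Dnajb6, J-domain proteins that keep proteins from aggregating, stood at 35.0 ± 2.33 against 37.3 ± 4.01 CPM and at 61.8 ± 10.5 against 56.2 ± 3.05 CPM (hepKO first). The 3 J-domain genes ranged from 1.28-fold to 1.49-fold over the 8 mice, and for none of them was mouse 28 lowest. Reads of Dnaja1 and Smu1, which overlap on opposite strands, can be told apart only if strand was used in counting, which the sources used here do not give. Smu1 ranged from 33.96 to 40.1 CPM in these mice.

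Mitochondrial chaperones did not share the pattern of the inducible genes. Hspd1, the chaperonin HSP60 (ENSMUSG00000025980, chr1:55077835-55088243), stood at 596, 331, 389 and 387 CPM in hepKO livers 28, 34, 37 and 39 and at 478, 498, 405 and 394 CPM in control livers 29, 32, 40 and 41. Here mouse 28 was the highest of all, and without it the other 3 hepKO mice lay below the 4 controls (log2 fold change -0.27, edgeR adjusted p = 0.894). Hspe1, its lid HSP10, which is transcribed the other way from the shared stretch printed above, stood at 74.5, 42.3, 57.7 and 58.3 CPM in hepKO livers and 78.5, 81.7, 53.7 and 56.5 in controls. In both genes mouse 34 was lowest and mice 28, 29 and 32 were the highest 3. The annotated genes overlap on opposite strands, so reads in the overlap can be told apart only if strand was used in counting. Log2 fold changes were -0.06 ± 0.19 for Hspd1 and -0.22 ± 0.20 for Hspe1 (SE).

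The other mitochondrial members were steady apart from 1 mouse. Hspa9, the mitochondrial HSP70, stood at 541, 523, 522 and 546 CPM in hepKO livers and 510.4, 537, 753 and 537 in controls, where mouse 40 lay above the other 7. Trap1, the mitochondrial HSP90, stood at 129, 125, 126 and 131 CPM in hepKO livers and 135, 132, 129 and 139.9 in controls. Trap1 had a 1.12-fold range over the 8 mice, and fewer than 1% of the 15234 genes varied less between mice of a genotype (percentile 0.0853 of the within-genotype SD of log2(CPM + 0.5)). By the same measure Hsph1 stood at the 99.3 percentile, Hspa1b at 99.1, Hspa1a at 98.6 and Dnajb1 at 97.2, and 8 of 33 members lay above the 90th. The interval of the Trap1 log2 fold change was -0.26 to 0.12.

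The values of the small heat shock proteins did not all lie on one side of 0. Hspb1, HSP27, stood at 10.5, 4.68, 14.7 and 7.91 CPM in hepKO livers and 9.75, 18.6, 8.60 and 11.7 in controls, with mouse 34 lowest and mouse 32 highest. Hspb8 (ENSMUSG00000041548, chr5:116408491-116422864), the HSP22 that works with BAG3, stood at 604, 206, 215 and 127 CPM in hepKO livers and 167, 267, 122 and 127 in controls. Mouse 28 was above all others, and the log2 fold change of 0.75 with an SE of 0.47 (adjusted p = 0.779 by edgeR) was 0.10 without it. Hspb6, HSP20, stood at 14.4, 6.22, 7.47 and 6.21 CPM in hepKO livers and 5.59, 7.0, 5.78 and 4.87 in controls, and its log2 fold change of 0.56 with an SE of 0.28 (adjusted p = 0.762 by edgeR) was 0.19 without mouse 28. The median of the 3 genes was likewise 0.56 with and 0.10 without that mouse. Leaving out mouse 32 alone gave 1.06 for Hspb8. With both mice 28 and 32 left out, the values were 0.40 for Hspb8, 0.30 for Hspb6 and -0.13 for Hspb1. Hspb6 overlaps Lin37 and Proser3 on the opposite strand. In mouse 28 Lin37 stood at 5.83 CPM, within the 4.32 to 5.84 CPM of the other 7 mice, and Proser3 at 0.568 CPM, below their 1.86 to 4.13 CPM.

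HSP90 and HSP70 cochaperones repeated the split between varying and steady genes. Stip1 (HOP), which hands cargo from HSP70 to HSP90, stood at 64.3 ± 25.8 CPM in hepKO livers and 98.6 ± 36.0 in controls (SD, n = 4 each), from 30.2 CPM in mouse 28 to 149 in mouse 32. Cacybp, a binding partner of the SIAH1 ubiquitin ligase, stood at 24.8 ± 7.90 against 34.1 ± 8.19 CPM, Ahsa1, which activates the HSP90 ATPase, at 76.7 ± 19.7 against 96.9 ± 21.4 CPM, and Fkbp4 (FKBP52), a cochaperone of steroid receptors, at 103 ± 40.7 against 135 ± 18.7 CPM (hepKO first). All 4 were lowest in mouse 28 and highest in mouse 32, as were St13 (HIP), which steadies HSP70 on its cargo, and Ptges3 (p23), which steadies closed HSP90. St13 stood at 126 ± 20.2 against 148 ± 25.8 CPM and Ptges3 at 93.5 ± 3.69 against 103 ± 10.2 CPM. Stub1 (CHIP), the ubiquitin ligase that marks chaperone-bound proteins for decay, stood at 44.0 ± 1.53 against 41.6 ± 7.26 CPM, and Hspbp1, an exchange factor of HSP70, at 8.65 ± 0.652 against 8.86 ± 0.948 CPM. For Stub1 the lowest mouse was 41 and the highest 40, and its opposite-strand neighbour Jmjd8 ran from 20.2 CPM in mouse 28 to 38.3 in mouse 37. None of the 8 passed (edgeR adjusted p of 0.770 to 0.968).

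The factors that control the response were expressed at low levels. Hsf1, the main heat shock factor, stood at 10.3, 15.6, 13.3 and 13.3 CPM in hepKO livers and 13.8, 14.1, 16.8 and 11.3 in controls, the lowest level per kilobase of exon among the 33 genes (1.91 CPM per kb). Hsf2, a second heat shock factor, stood at 15.8, 21.7, 24.7 and 27.9 CPM in hepKO livers and 32.9, 33.1, 24.7 and 29.3 CPM in controls. Of the hepKO mice only number 39 overlapped the controls, lying above mouse 40. Mouse 37 (24.69 CPM) nearly tied with mouse 40 (24.71 CPM). The means were 22.5 ± 5.14 CPM in hepKO livers and 30.01 ± 3.95 in controls (SD, n = 4 each). The log2 fold change was -0.41 with an SE of 0.18, a 95% interval of -0.81 to -0.01 and an adjusted p of 0.742 by edgeR. Leaving out each mouse in turn gave values from -0.53 to -0.28. The Hsf1 mRNA level says nothing of the activity of its protein, which is set after translation.

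The covariation of the inducible genes was measured against Hspa1b over all 8 mice, on log2(CPM + 0.5). Of 32 other members, 13 had a Pearson r above 0.8, against 4.5% of 15222 genes with a symbol of their own. At an unadjusted p under 0.05 there were 16 of 32 members against 17.8% of genes. By exact two-sided permutation, 0 members and 0% of genes passed after adjustment over all genes (smallest adjusted p = 0.11 for r and 0.195 for Spearman's rho). The least p that permuting 8 mice allows is 2.48e-05, so no gene could pass this adjustment on its own. Mice were permuted without regard to genotype. For Dnajb1, r was 0.96 and rho 0.95 (exact permutation p = 1.49e-04 and 0.00114, adjusted 0.11 and 0.209). For Hspa8, r was 0.90 and rho 0.95 (exact permutation p = 2.48e-04 and 0.00114, adjusted 0.11 and 0.209). Hspa1a came first of all genes (r = 0.99, rho = 0.90; exact permutation p = 2.48e-04 and 0.00456, adjusted 0.11 and 0.249), but it shares reads with Hspa1b.

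For Dnajb1 and Hspa8 the relation held when the 2 mice farthest from the median of Hspa1b (28 and 32) were left out. Their r was then 0.97 and 0.86. Among the 6 mice left, Hspa1b stood at 13.3 to 17.4 CPM in mice 34, 39 and 40 and at 42.1 to 48.4 CPM in mice 29, 37 and 41, so this r rests largely on that step. Members with an r above 0.8 then numbered 11 of 32, against 5.46% of genes. Hsp90aa1 joined them, moving from 0.79 to 0.98. Hsp90ab1, Fkbp4 and Hsf2 dropped out, from 0.91, 0.86 and 0.84 over all mice to 0.73, 0.59 and 0.49. The genes shared the same 8 libraries and the same scaling factors. Over the 8 mice r was -0.37 for Hspb8, -0.60 for Hspb6, -0.21 for Hspd1 and 0.37 for Trap1 (exact permutation p of 0.111 to 0.624, adjusted 0.386 to 0.832). Their rho was 0.17, -0.07, -0.07 and 0.29 (exact permutation p of 0.501 to 0.882, adjusted 0.890 to 0.982). For Hspb8 the signs of r and rho differ. Without mice 28 and 32 r was 0.35 for Hspb8, -0.04 for Hspb6, 0.42 for Hspd1 and 0.43 for Trap1, so the negative values rest on those mice.

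**Figure D4:**
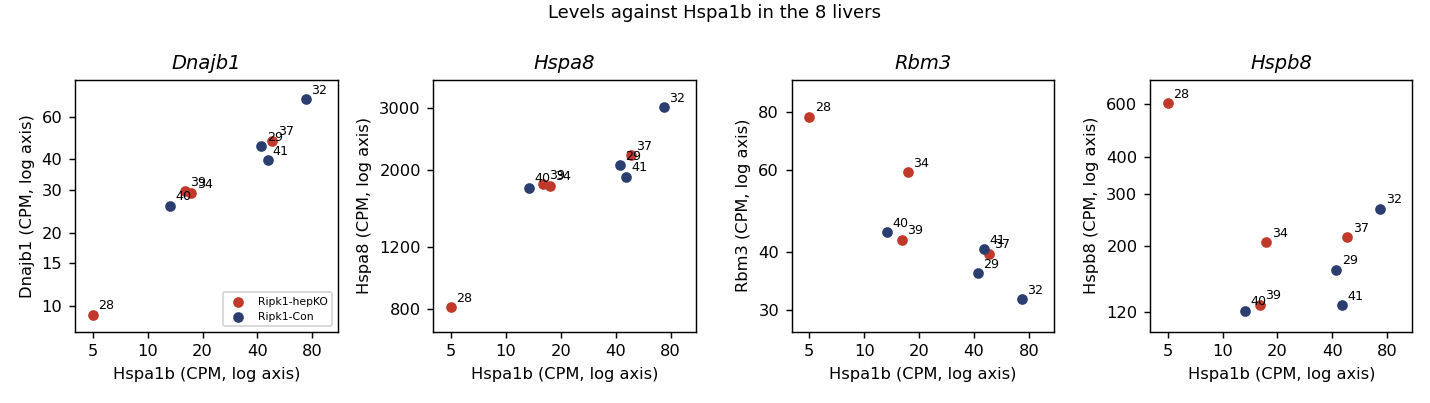
CPM of Dnajb1, Hspa8, Rbm3 and Hspb8 against CPM of Hspa1b in the 8 livers, all on log axes, with mouse numbers beside the points. Dnajb1 and Hspa8 are higher where Hspa1b is higher and Rbm3 is lower there, whereas Hspb8 is highest in mouse 28, which has the lowest Hspa1b.

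Rbm3 and Cirbp, RNA-binding proteins known to be induced by cold, were lower in mice with higher Hspa1b. Other genes were too: 1.26% of all genes had an r as low as that of Rbm3 and 2.84% as low as that of Cirbp. The HSP70 exchange factor Bag5 had an r of -0.97 (exact permutation p = 6.94e-04, adjusted 0.11). Rbm3 and Cirbp had mouse 28 highest and mouse 32 lowest, as had 3.69% of all genes and 0 of 33 members. Rbm3 stood at 78.4, 59.4, 39.7 and 42.6 CPM in hepKO livers and 36.0, 31.7, 44.2 and 40.7 in controls. Its r with Hspa1b was -0.88 and its rho -0.86 (exact permutation p = 0.00188 and 0.0107, adjusted 0.116 and 0.287), and r was -0.61 without mice 28 and 32. Cirbp stood at 16.4, 8.36, 8.46 and 6.77 CPM in hepKO livers and 7.82, 4.36, 10.1 and 6.91 in controls. Its r of -0.84 and rho of -0.62 (exact permutation p = 0.00769 and 0.115, adjusted 0.147 and 0.536) compare with an r of -0.34 without those mice, so the Cirbp relation rests on them. Between genotypes, the Rbm3 log2 fold change was 0.53 ± 0.22 and that of Cirbp 0.46 ± 0.33 (SE; edgeR adjusted p = 0.742 and 0.797).

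Other genes of cytosolic folding had a median within-genotype SD on the log2 scale of 0.12 for CCT, 0.12 for prefoldin, 0.22 for further HSP90 partners and 0.27 for other HSP70 and HSP40 genes. The same median was 0.53 for the inducible members, 0.17 for the constitutive members and 0.26 for all genes tested. All 8 subunits of CCT, the chaperonin that folds actin and tubulin, had log2 fold changes below 0, with a median of -0.10 and 0 past the FDR. Their summed level was lowest in mouse 28 (629 CPM) and highest in mouse 32 (823 CPM), the extremes of many members. Tcp1 stood at 62.0, 107, 117 and 115 CPM in hepKO livers and 118, 132, 126 and 125 in controls, with groups that did not overlap and mouse 28 far below the rest (edgeR adjusted p = 0.771). Cct7 and Cct4 had log2 fold changes of -0.10 and -0.16. The 6 prefoldins, which bring actin and tubulin to CCT, had a median of 0.03, with Pfdn4 at 4.84 ± 1.14 against 4.33 ± 0.567 CPM, Pfdn2 at 32.4 ± 3.20 against 31.1 ± 1.13 CPM and Pfdn6 at 14.7 ± 1.62 against 15.3 ± 0.516 CPM (hepKO first). Of 15 further HSP90 partners tested, 11 lay below 0, with a median of -0.09. Tsc1 stood at 20.5 ± 1.99 against 25.7 ± 1.65 CPM, with groups that did not overlap, and Cdc37l1 at 36.3 ± 7.62 against 43.6 ± 4.52 CPM. Groups did not overlap for 1 of 8 CCT genes and 2 of these 15 partners, against 4.1% of all genes. Of 20 other HSP70, HSP40 and exchange factor genes tested, 10 lay below 0, with a median of -0.02. Of these, Hspa14 stood at 11.03 ± 5.96 against 7.25 ± 0.925 CPM, Dnajc21 at 23.3 ± 2.44 against 26.9 ± 2.89 CPM and Bag5 at 17.7 ± 5.44 against 13.6 ± 2.39 CPM.

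Proteases and import factors that work with the mitochondrial chaperones had 12 of 16 values below 0 and a median of -0.04. Clpx, which unfolds proteins for the protease ClpP, stood at 96.4 ± 19.97 against 130.3 ± 15.8 CPM, Htra2 at 9.42 ± 0.835 against 7.60 ± 1.12 CPM and Grpel2, an exchange factor of mitochondrial HSP70, at 68.3 ± 24.3 against 95.4 ± 8.46 CPM (hepKO first). Among small heat shock proteins outside the list, Hspb11 stood at 2.15 ± 0.124 against 1.87 ± 0.447 CPM and Cryab at 1.80 ± 0.367 against 1.76 ± 0.192 CPM, and 3 others did not pass the filter on low counts. The 6 regulators tested had a median of 0.26, with Ier5, which binds and activates HSF1, at 7.23 ± 3.62 against 5.24 ± 1.097 CPM, Hikeshi, the nuclear importer of HSP70, at 10.03 ± 2.93 against 12.3 ± 2.24 CPM and Hsbp1, which binds heat shock factor trimers, at 38.8 ± 2.09 against 41.9 ± 2.79 CPM. None of these genes passed the FDR by edgeR, and of these mitochondrial, small and regulatory genes Clpx alone had an unadjusted p under 0.05.

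The ER chaperones and the proteasome were measured beside them. The 15 ER chaperones had a median log2 fold change of 0.01, and their summed level was 10465 CPM in mouse 28 and 9131 in mouse 32, within the range of 7647 to 12055 CPM of the 8 mice. Hspa5, the HSP70 of the ER, stood at 2556, 1984, 1923 and 1389.9 CPM in hepKO livers and 2109.9, 1562, 1481 and 1529 in controls. It was highest in mouse 28 and its r with Hspa1b was -0.36 (rho -0.07; exact permutation p = 0.380 and 0.882, adjusted 0.666 and 0.982). Without mice 28 and 32 that r was 0.47, so its sign rests on them. Manf and Canx had log2 fold changes of 0.23 and -0.15. The 31 proteasome subunits had a median of -0.04, with Psmc2, Psmd6 and Psmd8 at -0.24, -0.14 and 0.29, and a summed level of 2475 CPM in mouse 28 and 2433 CPM in mouse 32, the 2 highest of the 8. Psmc2, alone of the 31, had groups that did not overlap, lower in hepKO livers. No difference between these groups of genes was tested.

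Marker lists of cell types differed in which mouse was highest. The liver label fitted its markers, as all 10 hepatocyte markers were expressed and 5 of 8 markers of fat and muscle were at 0 in every library. Hepatocyte markers (10 of 10 in the table) summed to 86323 to 107457 CPM in hepKO livers and 112720 to 131693 CPM in controls, lowest in mouse 28 and highest in mouse 32. The groups did not overlap in this sum. Of the 10 markers, 9 had log2 fold changes below 0, against 48.2% of all genes, and 1 was at 0.44. Taken singly, 2 of the 10 had groups that did not overlap, against 4.1% of all genes. Stellate and fibroblast markers (9 of 9) summed to 305 to 441 CPM against 256 to 315 CPM, and smooth muscle markers (8 of 8) to 14.0 to 22.2 CPM against 12.6 to 16.3 CPM. Monocyte and macrophage markers (8 of 8) summed to 75.4 to 189 CPM against 38.6 to 133 CPM, and neutrophil markers (7 of 7) to 10.5 to 51.0 CPM against 4.15 to 32.6 CPM. Each of these 4 lists was highest in mouse 28, as were cholangiocyte markers (6 of 6; 15.5 to 62.8 CPM against 13.5 to 34.7 CPM). The monocyte and macrophage list and the cholangiocyte list share the gene Spp1, so their sums are not separate. Kupffer cell markers (7 of 7) were highest in mouse 41, endothelial markers (7 of 7) in mouse 39, and T, NK and B cell markers (9 of 9) and erythroid markers (6 of 6) in mouse 29. Their sums overlapped between the groups, at 189 to 285 against 76.3 to 334 CPM, 142 to 214 against 108 to 191 CPM, 3.35 to 5.26 against 2.72 to 5.68 CPM and 190.0 to 516 against 254 to 636 CPM. The erythroid sum was lowest in mouse 28. Immediate early genes (20 of 20), which respond within minutes to injury or handling, summed to 1268 CPM in mouse 28 and 199.5 to 449 CPM in the other 7.

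Of that list, 16 of 18 genes tested lay above 0 (median 1.17 on the log2 scale). An unadjusted p under 0.05 with a higher value was found for 7 of 18, against 3.86% of all genes, and 0 passed the FDR by edgeR. Klf2 stood at 7.82 ± 2.74 against 4.10 ± 0.872 CPM and Dusp1 at 21.1 ± 5.30 against 11.4 ± 3.85 CPM (hepKO first). Ier3 stood at 25.2, 1.67, 2.87 and 2.27 CPM in hepKO livers and 0.856, 1.88, 0.598 and 1.33 in controls, so that its mean rests on mouse 28. Core clock genes summed to 441 CPM in mouse 28 and 642 to 729 CPM in the others. The log2 fold changes of Clock, Nr1d2 and Cry1 were -0.31, -0.42 and -0.30, and 0 of these 16 genes passed by edgeR. The part of these cell types and responses in the chaperone levels was not tested.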

How the data were processed

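Whole-number counts per Ensembl gene in 8 liver libraries were used as the authors deposited them, not normalized. Per the labels' protocols, polyadenylated RNA was made into strand-specific libraries read from both ends at 150 bp. GRCm38.p6 and the tools DESeq2 1.38.1, StringTie 2.2.1, STAR 2.5.2b and FastQC 0.11.5 appear per the submitters' processing notes, roles unstated. Which tool counted, with which strand setting and annotation release, is not given in the sources used here. Symbols and positions came from GENCODE M21 (GRCm38), which matched 55154 gene IDs and missed 181.

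Genes were filtered with filterByExpr, scaled by TMM and tested for genotype alone with edgeR 4.0.16 (robust quasi-likelihood, R 4.3.3), with Benjamini-Hochberg adjustment over 15234 genes. The mouse numbers pair nothing across groups. On simulated counts for this comparison (15234 genes), 2% of genes changed 1.5-fold were called, 44% at 2-fold, 92% at 4-fold and 96% at 8-fold, 50 genes at each. Levels per kilobase used the union of exons. Correlations used exact permutation of 8 mice.

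The members, their roles and the other lists were chosen with earlier results of these data known. Values by mouse are given for inducible, mitochondrial, small and heat shock factor genes, Hspa8, Hspa4 and Hsp90ab1. From each further list up to 3 genes of smallest p are named, and 1 of these is not reported here. Cirbp, Rbm3, Hspa5 and Ripk1 are always named, and genes overlapping a member were named after their values were seen. Alternatives were DESeq2 size factors, library size alone, other filters, DESeq2 1.42.0, limma 3.58.1 voom with and without sample quality weights, no robust option, and mice left out. The labels' protocols name PCR and no molecular identifiers, so reads are not independent molecules.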

Additional observations from a re-analysis of the deposited data

Results flagged for a closer look

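Among 66 sets of 4 mice (33 genes in each genotype), 4 held a mouse set apart from the other 3 by more than Dixon's 95% limit (a gap over the range above 0.829), a rate of 6.06% where chance gives about 1 in 20. Hsp90ab1 stood at 1412 CPM in Ripk1-Con mouse 32, with a gap of 0.876 of the range. Hspa9 stood at 753 CPM in Ripk1-Con mouse 40, with a gap of 0.890 of the range. Hspb6 stood at 14.4 CPM in Ripk1-hepKO mouse 28 and Hspbp1 at 10.3 CPM in Ripk1-Con mouse 29. Hsph1 and Hspb8, with mouse 28 at their end, did not pass this limit.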

How the results depend on the processing

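Of 630 log2 fold changes over 35 genes (33 members, Cirbp and Rbm3) under the alternatives, 602 kept their direction and 0 passed the FDR (smallest adjusted p = 0.440). Over all genes, DESeq2 called 36 and the other alternatives, leaving out each mouse included, called 0, with 0 members called throughout. With 1 mouse left out, medians ranged from -0.78 to -0.28 for inducible, -0.17 to -0.04 for constitutive, -0.20 to -0.07 for mitochondrial, 0.10 to 0.70 for small, -0.41 to -0.15 for cochaperone and -0.31 to -0.13 for heat shock factor genes. The lowest value of the constitutive median came without mouse 29 and its highest without mouse 32. The inducible median was -0.28 without mouse 32 and -0.40 without mouse 28. Members whose groups did not overlap numbered 0 to 2 with 1 mouse left out (up to 9.63% of all genes), and 5 without mice 28 and 40 (Hspa4l, Hspa1a, Hspd1, Trap1 and Hsf2, all lower; 15.6% of all genes) and 2 without mice 28 and 32 (Hspb6 and Hspd1; 9.81%). Fewer mice make such separation easier.

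Without mice 28 and 40 the small heat shock protein median was -0.0355, and reversed values were -0.0355 for Hspb8, 0.0101 for Dnajb4, 0.00564 for Hspa9 and 0.11 for Hsf1. Without mice 28 and 32 the constitutive median was -0.00324, and reversed values were 0.16 for Dnajb4, 0.0248 for Hspa8, 0.0176 for Hsf1 and -0.0656 for Cirbp. Dnajb4 also turned with quality weights (0.0761), with library size alone (0.0443), without a filter (0.00806) and with at least 1 CPM required in 4 libraries (0.00104). Hspbp1 turned with library size alone (6.34e-04), and Dnaja2 (0.00216) and Hsf1 (0.0773) with quality weights. With 1 mouse left out, values ran from -0.0626 to 0.0780 for Dnajb4, -0.13 to 0.0146 for Dnaja2, -0.19 to 0.0217 for Hspa9, -0.27 to 0.0515 for Hspd1, -0.0618 to 0.0446 for Hspbp1, -0.18 to 0.0157 for Hsf1 and -0.0143 to 0.20 for Stub1. The r of Hspb8 with Hspa1b was 0.35 without mice 28 and 32. The cause was not tested. Simulated 2-fold changes were called for 44% of the genes drawn, so smaller differences would mostly be missed. Those genes were drawn at random and not from the members. The inducible members varied more, with a median within-genotype SD on the log2 scale of 0.53 against 0.26 for all genes tested. The 44% therefore does not give the rate for them.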
